A study of Homo sapiens with 16 samples.

Results

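The genes described here are 10 enzymes of fatty acid synthesis, desaturation, elongation and activation: ACLY, ACACA, FASN, SCD, FADS1, FADS2, ELOVL1, ELOVL5, ELOVL6 and ACSL3. They were chosen by symbol, through the GENCODE annotation of the gene identifiers, and are 10 of the 28951 genes measured. All 10 passed the filter on low values, which left 23968 genes for testing. RNA was sequenced from 4 established non-small cell lung cancer lines, which grew in RPMI medium with 10% serum. Treatment began 1 day after plating and lasted 48 hours, either with vehicle (DMSO) or with 2 compounds at once: MYCi975 (5 µM), which inhibits MYC, and TMP195 (25 µM), which inhibits class IIa histone deacetylases. The pair is called the combination here. The series calls H460 and H1703 responsive lines and HCC827 and H441 non-responsive lines, and each line has 2 vehicle and 2 combination libraries, 16 in all.

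Fatty acids are built in the cytosol from acetyl-CoA. ACLY makes acetyl-CoA from citrate, ACACA carboxylates it to malonyl-CoA in the rate-limiting step, and FASN joins these units into palmitate. Elongases of the ELOVL family then lengthen the chain, desaturases such as SCD and the FADS enzymes insert double bonds, and acyl-CoA synthetases such as ACSL3 activate fatty acids for membranes and lipid droplets. Many genes of the pathway are known targets of the sterol regulatory element-binding proteins, SREBP-1 and SREBP-2, and tumour cells often express them highly.

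Most of the 10 genes fell with the combination in H460 and H1703, fewer fell in HCC827, and in H441 the changes went both ways. In H460 9 fell and 1 rose, where 12.6% of all genes tested were called lower and 14.1% higher. In H1703 7 fell, 1 rose and 2 did not pass the test, against 17.6% lower and 17.9% higher among all genes. In HCC827 5 fell and none rose, against 5.5% lower and 4.42% higher. In H441 1 fell and 1 rose, against 1.86% lower and 2.77% higher. A gene counts as called at an adjusted p of at most 0.05 (limma on the deposited log2 values, Benjamini-Hochberg over all genes tested). As the mean of the responsive lines, 9 fell and 1 rose (17.9 and 20.6% of all genes), and as the mean of the non-responsive lines 5 fell (6.05% lower and 6.25% higher among all genes). The median log2 change of the 10 genes was -1.14, -0.54, -0.33 and -0.17 for H460, H1703, HCC827 and H441, while the median of all genes tested lay between 0 and 0.082. FASN was the only one of the 10 called lower in all 4 lines, as were 0.384% of all genes. Without regard to the test, both treated libraries lay below both vehicle libraries for 9, 8, 9 and 6 of the 10 genes in the same order of lines, where 25.3, 29.4, 25.4 and 22.4% of all genes did so. They lay above vehicle for 1, 1, 1 and 3 genes, against 31.6, 37.9, 24.7 and 22.5%.

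**Figure D1:**
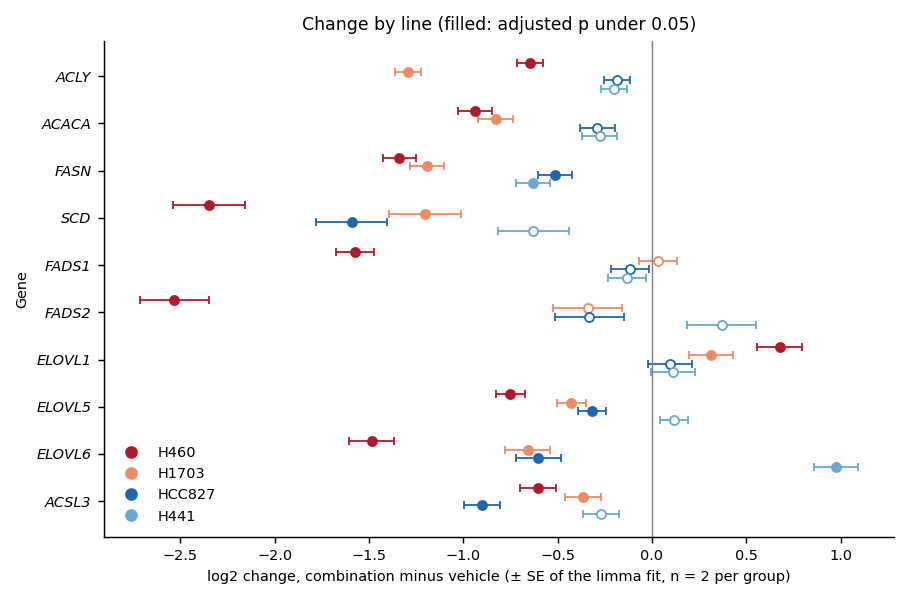
Log2 change from vehicle to the combination (horizontal axis, bars are the standard error of the limma fit, n = 2 libraries per group) of the 10 genes (vertical axis) in the 4 lines (colours), with filled points at an adjusted p of at most 0.05. The H460 points of FADS2 and SCD lie farthest to the left, at -2.53 and -2.35, followed by SCD in HCC827 at -1.59 and FADS1 in H460 at -1.57, and the H441 point of ELOVL6 lies to the right of 0, at 0.98.

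Across the series, the depth was 8493271 to 13604150 reads per library in the listed genes, and the mitochondrial ribosomal RNA MT-RNR2 took 10.4 to 21.0% of them. The nuclear RNA MALAT1 took a larger share of reads with the combination in every line, from 0.160 and 0.192% to 1.35 and 1.21% in H460 and from 0.790 and 0.923% to 1.14 and 1.06% in H441. Its part in the results was not tested. Of 6 epithelial markers, the summed normalised reads were 27750 to 36460 in H460, 47160 to 56000 in HCC827 and 88110 to 101100 in H441, but only 232 to 264.9 in H1703, which thus nearly lacked the markers that the other lines carry. In H460 the sum came from keratins, with at most 8.80 normalised reads of EPCAM and 0.787 of CDH1. The summed alveolar markers were 1046 and 1102 in HCC827 vehicle and 434 to 529 with the combination, 4262 and 4498 in H441 vehicle and 1642 to 1901 with the combination, and 2.28 to 18.1 in H460 and H1703. Leukocyte markers, of which 2 of 4 were listed, summed to 15.0 and 20.5 in H460 vehicle, 1.14 to 5.10 with the combination and at most 6.51 elsewhere, and fibroblast markers (2 of 3 listed) to at most 158 in vehicle and 85.5 with the combination. Fat cell and endothelial markers summed to at most 11.1. The part of these shifts in the results was not tested. Whether both libraries of a group stem from different cultures is not stated, so the p-values measure the spread between libraries, which may be technical. In bulk RNA, fewer cells of a kind and less RNA per cell cannot be told apart. Centring each library on its median moved the median change of all genes by -0.194 in H460 and -0.242 in H1703, and the share of calls that were higher went from 52.7 to 32.6% and from 50.4 to 31.1%.

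The 3 genes of palmitate synthesis fell in both responsive lines, and FASN fell in the others too. ACLY (17:41866908-41930542, minus strand, GRCh38) had 4582 and 5143 normalised reads in the H460 vehicle libraries and 3011 and 3183 with the combination. In H1703 it had 4778 and 4500.0 in vehicle and 1847 and 1937 with the combination. The treated libraries lay below the vehicle libraries in both lines, with the wider gap in H1703. The log2 change was -0.65 ± 0.07 (SE, n = 2 libraries per group; adjusted p = 4.4e-07) in H460 and -1.29 ± 0.07 (adjusted p = 2.2e-11) in H1703. In HCC827 ACLY had 5497 and 5536 against 4788 and 4926 normalised reads, and in H441 3508 and 3270.4 against 2851 and 3046. These groups did not overlap either, but the changes of -0.18 (adjusted p = 0.11) and -0.20 (adjusted p = 0.11) did not pass the test. Their mean did, at -0.19 ± 0.05 (adjusted p = 0.013), though not without 1 H441 vehicle library (replicate 1, adjusted p = 0.0752) or 1 H441 combination library (replicate 1, adjusted p = 0.0673).

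ACACA (17:37084988-37406818, minus strand) had 1324 and 1373 normalised reads in H460 vehicle and 621 and 794 with the combination. The H1703 libraries went from 1719 and 1697 to 966 and 954. All treated libraries lay below vehicle, with log2 changes of -0.94 ± 0.09 (adjusted p = 1.3e-07) and -0.83 ± 0.09 (adjusted p = 4.9e-07). In HCC827, the line with the highest ACACA, values went from 2393 and 2522 to 1947 and 2071, a change of -0.29 ± 0.09 that just missed the threshold (adjusted p = 0.052). In H441 they went from 1621 and 1564 to 1268 and 1359.9 (-0.28 ± 0.09, adjusted p = 0.097). Without either H460 combination library, both of these changes passed (adjusted p 0.00793 and 0.00809 in HCC827, 0.0194 and 0.0198 in H441).

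FASN (17:82078333-82098332, minus strand), the synthase itself, had 5288 and 6825 normalised reads in H460 vehicle against 2232 and 2525 with the combination. The H1703 vehicle libraries had 4259 and 4017 and the treated ones 1800.1 and 1810.1. The fall was from 4027 and 4209.6 to 2897 and 2877 in HCC827, and from 4477 and 4619 to 2843 and 3031 in H441. No treated library reached a vehicle library of its own line. The log2 changes in the responsive lines were -1.34 ± 0.09 (H460, adjusted p = 7.4e-10) and -1.19 ± 0.09 (H1703, adjusted p = 2.4e-09). Those in the non-responsive lines were smaller, -0.51 ± 0.09 (HCC827, adjusted p = 0.00088) and -0.63 ± 0.09 (H441, adjusted p = 0.00033). With the fit limited to the libraries of 1 line, the H441 change no longer passed (adjusted p = 0.0881), and with neither trend nor robust settings the HCC827 change did not (adjusted p = 0.054). In vehicle, FASN was higher in H460 than in the other lines by 0.40 to 0.54 on the log2 scale, and the other lines did not pass the test against each other.

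SCD (10:100347124-100364834, plus strand), the desaturase that turns stearate and palmitate into oleate and palmitoleate, was the most abundant of the 10 RNAs in mean normalised reads per kilobase over the groups. In H460 it had 18006 and 19871 normalised reads in vehicle and 3311 and 4155 with the combination. The H1703 values were 14690.5 and 14603 against 5253 and 7716, and those of HCC827 9216 and 11537 against 3509 and 3326. In these 3 lines every treated library lay far below every vehicle library. The changes were -2.35 ± 0.19 (adjusted p = 5.2e-06) in H460, a level 0.196 times that of vehicle, -1.20 ± 0.19 (adjusted p = 0.00058) in H1703 and -1.59 ± 0.19 (adjusted p = 0.00055) in HCC827. In H441, SCD had 12557 and 16135 normalised reads in vehicle and 8732 and 9710.0 with the combination. Here the groups did not overlap, but the vehicle libraries lay far apart, and the change of -0.63 ± 0.19 did not pass (adjusted p = 0.10); without H1703 combination replicate 1 it did (adjusted p = 0.0243), and without replicate 2 as well (adjusted p = 0.0226). The annotation holds a processed pseudogene, SCDP1, with which reads could be shared.

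The SCD promoter is shown because this RNA was abundant and had one of the largest falls. The window runs from 250 bases before to 50 after the start (RefSeq, GRCh38.p14, chr10:100346983-100347282, plus strand), and capitals mark CCAAT.
SCD: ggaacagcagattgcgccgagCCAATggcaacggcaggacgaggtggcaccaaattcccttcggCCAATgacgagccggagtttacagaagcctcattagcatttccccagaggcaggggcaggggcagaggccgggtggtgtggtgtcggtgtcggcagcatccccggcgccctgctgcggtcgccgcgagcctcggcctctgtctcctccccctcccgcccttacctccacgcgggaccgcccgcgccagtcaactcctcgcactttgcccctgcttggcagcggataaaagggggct
CCAAT begins 229 and 186 bases before the start. Searched on both strands were the CCAAT box with the letters CCAAT, the E-box with CACGTG, the GC box with GGGCGG, and a form of the sterol regulatory element with TCACNCCAC. The GC box was left in lower case. RefSeq had 13 such windows for 9 of the 10 genes. The CCAAT box was in 9 of the 13 windows, from 7 genes, and in 34.6% of all 35116 promoter windows. The GC box was in 10 of the 13 windows and in 45.0% of all, the E-box in 1 window (ELOVL5) and in 7.26% of all, and the sterol element in 0 of the 13 and in 1.13% of all. A match is only a match of letters.

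FADS1 and FADS2 encode the front-end desaturases that make long polyunsaturated fatty acids from dietary precursors, and both were called lower in H460 and in no other line. FADS1 (11:61799625-61829318, minus strand) had 4066 and 4597 normalised reads in H460 vehicle and 1262 and 1667 with the combination, a change of -1.57 ± 0.10 (adjusted p = 3.9e-10). FADS2 (11:61792980-61867354, plus strand) had 1075 and 1371 in H460 vehicle and 161 and 267 with the combination, a change of -2.53 ± 0.18 (adjusted p = 1.9e-09) to 0.173 times the vehicle level. This was the largest change of any of the 10 genes in any line.

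FADS1 was not called in the other lines. It had 1750.1 and 1836 normalised reads in H1703 vehicle against 1828 and 1836 with the combination, which overlap. In HCC827 it had 1858 and 1889.6 against 1652 and 1804, and in H441 1638 and 1662 against 1595 and 1425. The treated libraries lay slightly below vehicle in both of these lines. None of the 3 changes passed (0.03, -0.12 and -0.13, each ± 0.10; adjusted p = 0.87, 0.56 and 0.58). Its sign in H1703 depended on scaling, with -0.21 (adjusted p = 0.138) after median centring and 0.27 (adjusted p = 0.0225) after quantile normalisation.

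FADS2 was low outside H460. It had 124 and 108 normalised reads in H1703 vehicle against 91.5 and 89.8 with the combination, 150.3 and 152 against 116 and 123 in HCC827, and 120.4 and 112 against 156 and 145 in H441. The treated libraries were thus below vehicle in H1703 and HCC827 and above it in H441. The changes of -0.34 (adjusted p = 0.16), -0.33 (adjusted p = 0.31) and 0.37 (adjusted p = 0.31), each ± 0.18, did not pass. Median centring moved the H1703 change past the threshold (adjusted p = 0.0175).

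In vehicle, H460 held more of both desaturase RNAs than the other lines. Vehicle FADS2 was higher in H460 by 2.98 to 3.36 on the log2 scale, and FADS1 by 1.21 to 1.39, with adjusted p of at most 3.95e-09 for each. Among H1703, HCC827 and H441 neither gene passed the test in vehicle. The ratio of the highest to the lowest line mean of FADS2 went from 10.6 in vehicle to 2.36 with the combination, and that of FADS1 from 2.63 to 1.25. H460 held the highest FADS1 mean of the 4 lines in vehicle and the lowest with the combination, while it held the highest FADS2 mean under both.

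The 2 genes lie on opposite strands, and their spans overlap. Along the FADS2 strand, the FADS1 start site lies 599 or 800 bases downstream of the RefSeq FADS2 starts shown or mentioned here. From these starts the transcripts thus run towards and across each other. Their promoters are shown because the falls in H460 stood side by side and were absent from the calls of other lines. The windows are chr11:61816954-61817253 (minus strand) for FADS1 and chr11:61816154-61816453 (plus strand) for the second FADS2 start in RefSeq (GRCh38.p14), and capitals mark CCAAT.
FADS1: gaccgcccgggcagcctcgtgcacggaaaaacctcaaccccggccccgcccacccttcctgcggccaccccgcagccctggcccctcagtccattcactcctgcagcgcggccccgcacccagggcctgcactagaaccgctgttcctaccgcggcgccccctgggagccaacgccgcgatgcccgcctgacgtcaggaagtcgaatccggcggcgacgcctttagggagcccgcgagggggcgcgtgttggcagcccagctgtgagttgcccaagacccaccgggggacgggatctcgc
FADS2: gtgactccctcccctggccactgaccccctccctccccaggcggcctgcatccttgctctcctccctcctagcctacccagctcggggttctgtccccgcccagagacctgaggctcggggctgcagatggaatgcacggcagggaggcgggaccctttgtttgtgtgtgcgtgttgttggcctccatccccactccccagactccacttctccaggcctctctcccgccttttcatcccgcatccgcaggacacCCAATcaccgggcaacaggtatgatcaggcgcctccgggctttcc
This FADS2 window holds CCAAT 6 bases after the start, and the FADS1 window holds none. The window of the first FADS2 start, which is not shown, holds none of the 4 motifs searched. Exons of both genes overlap on opposite strands over 490 bases, which is 4.79% of the FADS1 exon length and 4.44% of that of FADS2. The kit keeps strand, but whether the counting used it is not stated, so a small part of either count could belong to its neighbour. The annotation also holds an unprocessed pseudogene, FADS2P1.

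**Figure D2:**
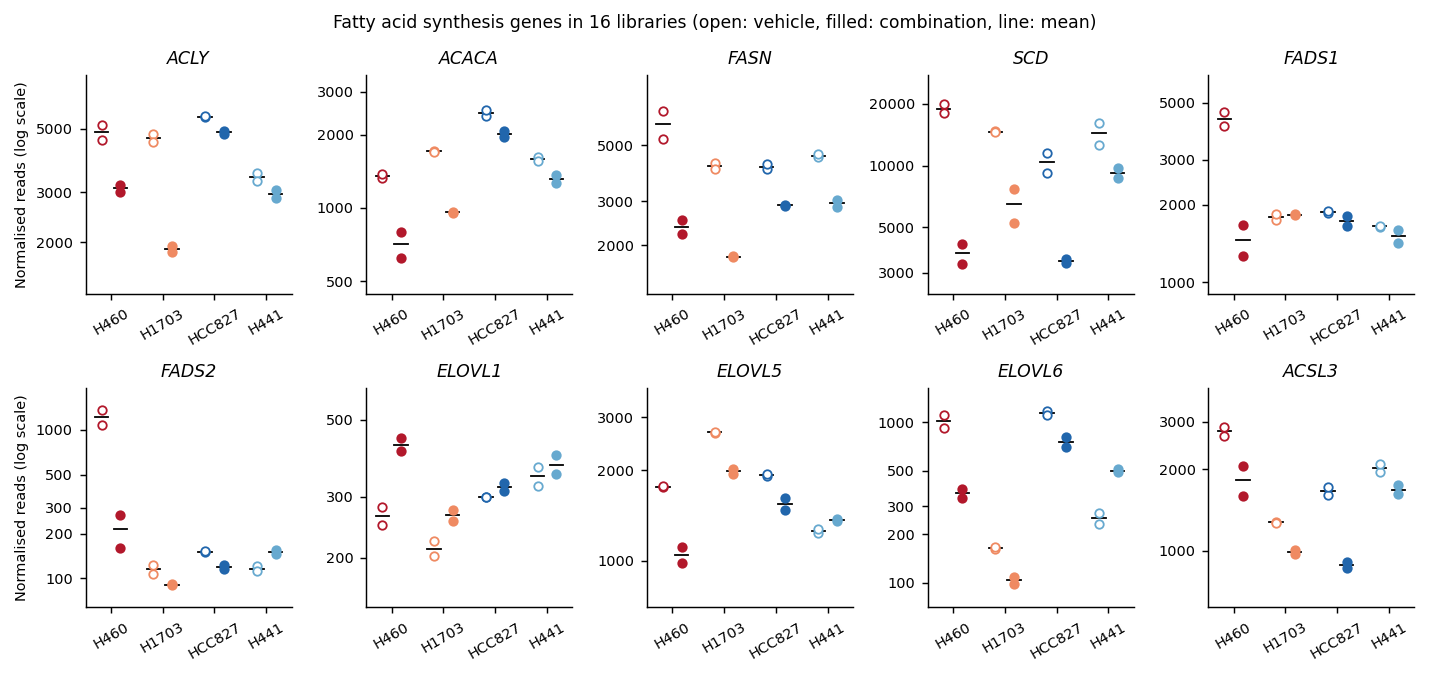
Normalised reads of each of the 10 genes (vertical axes, log scale, 1 panel per gene) in the 16 libraries by line (horizontal axes), with open points for vehicle, filled points for the combination and a line at the mean of 2 libraries. The open H460 points of FADS1 and FADS2 stand above all other libraries, and in H441 the filled ELOVL6 points, at 508 and 487, lie above the open ones, at 271 and 233.

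The 3 elongases went different ways. ELOVL6, which lengthens palmitate to stearate (4:110045846-110199199, minus strand), had 920.5 and 1111 normalised reads in H460 vehicle and 336 and 384 with the combination. In H1703, where it was lowest, it had 163 and 166 against 108 and 98.5. In HCC827, where it was highest, it had 1171 and 1116 against 807 and 700.0. In all 3 lines the treated libraries lay below vehicle, with changes of -1.49 ± 0.12 (adjusted p = 8.1e-09), -0.66 ± 0.12 (adjusted p = 0.00017) and -0.60 ± 0.12 (adjusted p = 0.0023). The HCC827 change did not pass without combination replicate 2 (adjusted p = 0.058).

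In H441 ELOVL6 rose. It had 271 and 233 normalised reads in vehicle and 508 and 487 with the combination, so both treated libraries stood well above both vehicle libraries. The change was 0.98 ± 0.12 (adjusted p = 5.9e-05), or 1.97 times the vehicle level, and it passed with each of the 16 libraries left out in turn, though not in a fit of the 4 H441 libraries alone (adjusted p = 0.096). ELOVL6 was the only one of the 10 genes called higher in H441.

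ELOVL5, an elongase of polyunsaturated chains (6:53267398-53349179, minus strand), had 1753 and 1766 normalised reads in H460 vehicle and 981 and 1113 with the combination. The values were 2654 and 2683 against 1947 and 2020.5 in H1703, and 1909 and 1939 against 1618 and 1472 in HCC827. All treated libraries of these lines lay below vehicle, with changes of -0.75 ± 0.08 (adjusted p = 2.0e-07), -0.43 ± 0.08 (adjusted p = 0.00014) and -0.32 ± 0.08 (adjusted p = 0.0095). The HCC827 change did not pass without vehicle replicate 1 (adjusted p = 0.055), vehicle replicate 2 (0.0679) or combination replicate 2 (0.143) of that line. In H441 ELOVL5 had 1231 and 1278 against 1351 and 1373, with both treated libraries above vehicle and a change of 0.12 that did not pass (adjusted p = 0.47).

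ELOVL1, which makes very long saturated chains (1:43363397-43368074, minus strand), was the one gene of the 10 that rose in H460. It had 281 and 248 normalised reads there in vehicle and 406 and 441.3 with the combination. The treated libraries stood above vehicle, and the change was 0.68 ± 0.12 (adjusted p = 0.00016). In H1703 it had 202 and 224 against 255 and 275, a change of 0.32 ± 0.12 (adjusted p = 0.043). This smaller change did not pass after median centring (adjusted p = 0.729) or in 6 of the 16 fits without 1 library (any of the 4 H1703 libraries or either HCC827 vehicle library), with the highest adjusted p, 0.253, without H1703 vehicle replicate 1. In HCC827 ELOVL1 had 299 and 299 against 311 and 329, and in H441 364 and 322 against 348 and 395, which overlap. The changes of 0.10 (adjusted p = 0.71) and 0.11 (adjusted p = 0.72) did not pass. Across the 16 libraries ELOVL1 ran opposite to ELOVL5, with a Pearson r of -0.92 over libraries that share lines and treatments.

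The promoters of ELOVL1, which rose, and of ELOVL6, which fell in 3 lines and rose in the fourth, are shown for comparison. The windows are chr1:43367962-43368261 and chr4:110198566-110198865, both on the minus strand (RefSeq, GRCh38.p14), and capitals mark CCAAT.
ELOVL1: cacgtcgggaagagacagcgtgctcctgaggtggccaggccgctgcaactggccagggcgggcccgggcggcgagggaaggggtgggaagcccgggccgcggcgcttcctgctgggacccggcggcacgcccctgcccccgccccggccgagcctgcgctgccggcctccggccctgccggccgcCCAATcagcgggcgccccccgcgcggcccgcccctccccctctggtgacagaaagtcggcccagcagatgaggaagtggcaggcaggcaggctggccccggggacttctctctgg
ELOVL6: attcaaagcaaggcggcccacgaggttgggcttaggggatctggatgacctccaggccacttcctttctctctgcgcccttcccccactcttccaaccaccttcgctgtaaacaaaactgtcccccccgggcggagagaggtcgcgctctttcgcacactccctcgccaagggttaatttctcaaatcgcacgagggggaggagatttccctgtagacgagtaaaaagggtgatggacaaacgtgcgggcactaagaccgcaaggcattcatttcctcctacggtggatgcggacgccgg
The ELOVL1 window holds CCAAT 65 bases before the start, and the ELOVL6 window holds none. The GC content was 77.3% for ELOVL1 and 57.3% for ELOVL6, with a median of 58.7% over all promoter windows.

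ACSL3, an acyl-CoA synthetase that acts at the endoplasmic reticulum and on lipid droplets (2:222860934-222944639, plus strand), had its largest fall in HCC827. It had 1609 and 1725 normalised reads there in vehicle and 912 and 868 with the combination, a change of -0.90 ± 0.10 (adjusted p = 3.6e-06). In H460 it had 2664 and 2856 against 1593 and 2058, a change of -0.61 ± 0.10 (adjusted p = 5.8e-05), and in H1703 1279 and 1269.5 against 972 and 1006, a change of -0.36 ± 0.10 (adjusted p = 0.0050). No treated library of these lines reached vehicle. In a fit of the 4 H460 libraries alone the H460 change did not pass (adjusted p = 0.0575), and the H1703 change did not pass after quantile normalisation (adjusted p = 0.106). In H441 the values were 1955 and 2096 against 1746 and 1619, lower in both treated libraries but not past the test (-0.27 ± 0.10, adjusted p = 0.13); without H460 combination replicate 1 or 2 it passed (adjusted p = 0.032 and 0.0324).

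The difference between the mean responses of these lines was tested directly. The p-values take their spread from libraries, not from lines. They therefore do not cover how far lines of a class differ, and hold for these lines only. The mean change over H460 and H1703 was below that over HCC827 and H441 for 8 of the 10 genes and above it for 1, where 12.1 and 11.2% of all genes tested were called in those directions. FADS2 had the largest difference, -1.46 ± 0.18 (adjusted p = 5.8e-06), then ELOVL6 with -1.26 ± 0.12 (adjusted p = 1.6e-07), ACLY with -0.78 ± 0.07 (adjusted p = 8.1e-08) and FASN with -0.70 ± 0.09 (adjusted p = 8.5e-06). ACACA, FADS1 and ELOVL5 differed by -0.60, -0.65 and -0.49 (adjusted p of at most 7.3e-05 each). For FADS2 and FADS1 the difference rested mainly on H460, since in H1703 they changed by -0.34 and 0.03 and were not called. SCD differed by -0.67 ± 0.19 (adjusted p = 0.030) and ELOVL1 by 0.39 ± 0.12 (adjusted p = 0.019). Both depended on the settings and libraries used. After median centring the ELOVL1 difference was 0.18 (adjusted p = 0.348). The SCD difference was not called with quantile normalisation (adjusted p = 0.0509), neither trend nor robust (0.0522) or voom (0.0543), while ELOVL1 was called in those 3 fits. The SCD difference failed in 7 of 16 fits without 1 library, up to an adjusted p of 0.0725 without H460 combination replicate 1, the others being without either H1703 vehicle library, either HCC827 combination library, HCC827 vehicle replicate 1 or H441 combination replicate 2. That of ELOVL1 failed in 4 of 16, up to 0.0565 without H441 vehicle replicate 1, the others being without H460 vehicle replicate 2, H1703 vehicle replicate 1 or H441 combination replicate 1. ACSL3 was the exception, with -0.49 ± 0.07 in the responsive and -0.59 ± 0.07 in the non-responsive lines and a difference of 0.10 ± 0.10 (adjusted p = 0.52).

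The 2 classes were not uniform inside. Between H460 and H1703 the responses differed for 6 of the 10 genes, 5 with the lower value in H460 and 1 with the higher (7.8 and 11.3% of all genes). FADS2 differed by -2.19 ± 0.26 (adjusted p = 4.1e-06), FADS1 by -1.61 ± 0.14 (adjusted p = 1.3e-07), SCD by -1.15 ± 0.27 (adjusted p = 0.013) and ELOVL6 by -0.83 ± 0.17 (adjusted p = 0.0013). ACLY went the other way, with 0.64 ± 0.10 (adjusted p = 7.8e-05). ACACA and FASN differed by -0.11 ± 0.13 and -0.14 ± 0.13, which did not pass. The SCD difference did not pass without H460 combination replicate 1 (adjusted p = 0.0543), and that of ELOVL5, -0.32 ± 0.11 (adjusted p = 0.040), failed in 11 of 16 fits without 1 library, up to 0.137 without H460 combination replicate 1, the others being without either H460 vehicle library or any H1703 or H441 library.

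Between HCC827 and H441 the responses differed for 3 genes, each lower in HCC827 and none higher (1.31 and 0.697% of all genes). ELOVL6 differed by -1.58 ± 0.17 (adjusted p = 3.5e-05), since it fell in one line and rose in the other. ACSL3 differed by -0.64 ± 0.14 (adjusted p = 0.015) and ELOVL5 by -0.44 ± 0.11 (adjusted p = 0.037). Without HCC827 combination replicate 2 neither passed (adjusted p = 0.0828 and 0.177), nor did either pass without H441 vehicle replicate 1 (0.0804 and 0.137), H441 combination replicate 1 (0.0781 and 0.0912) or HCC827 vehicle replicate 2 (0.0757 and 0.109). The ELOVL5 difference also failed without HCC827 vehicle replicate 1, without replicate 2 of either H441 group and without any vehicle library of H460 or H1703. SCD, with a difference of -0.96 ± 0.27, did not pass (adjusted p = 0.12).

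**Figure D3:**
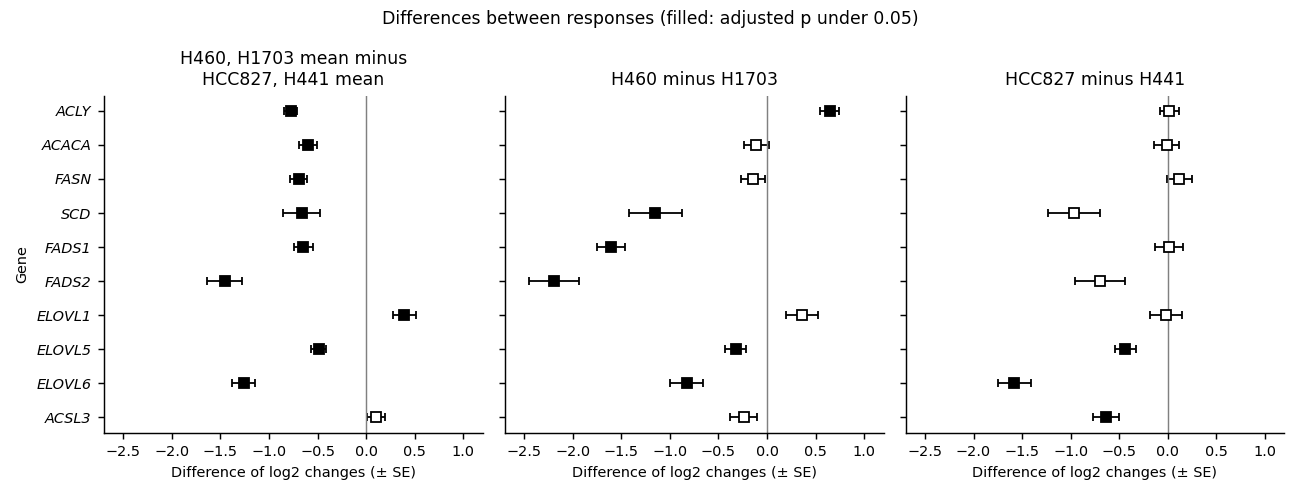
Differences of log2 changes (horizontal axes, bars are the standard error of the limma fit) for the 10 genes (vertical axis), from left to right responsive minus non-responsive lines, H460 minus H1703 and HCC827 minus H441, with filled squares at an adjusted p of at most 0.05. ACSL3 is the one open square on the left, at 0.10, and ACLY the one filled square above 0 in the middle, at 0.64.

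Set per kilobase of exon, so that genes can be compared, SCD was the highest of the 10 in vehicle in every line, with 3532 ± 246 normalised reads per kb in H460 (SD, n = 2) and 1935 ± 306 in HCC827. ACLY came next, with 649.6 to 1057 per kb in vehicle, and FADS2 was lowest in H1703, HCC827 and H441, with 10.5 to 13.7. The level summed over the 10 genes went from 6836 ± 527 to 2506 ± 286 normalised reads per kb in H460, from 5363 ± 52.8 to 2803 ± 359 in H1703, from 4829 ± 346 to 2970 ± 25.4 in HCC827 and from 4885 ± 456 to 3666 ± 165 in H441. H460 thus had the highest sum in vehicle and the lowest mean with the combination, where its libraries (2304 and 2708) overlapped those of H1703 (2549 and 3057). SCD made up 51.7% of that sum in H460 vehicle and 27.7% with the combination, 50.9 and 42.8% in H1703, 40.0 and 21.5% in HCC827, and 54.6 and 46.9% in H441. Without SCD the sum went from 3304 ± 281 to 1809 ± 174 in H460, from 2631 ± 41.3 to 1593 ± 34.4 in H1703, from 2894 ± 39.8 to 2332 ± 1.37 in HCC827 and from 2210 ± 16.4 to 1947 ± 36.1 in H441. On this sum H1703, not H460, was lowest with the combination.

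In vehicle the lines also differed in elongase and synthetase RNAs. Of the 10 genes, 8, 7 and 9 were called between H460 and H1703, HCC827 and H441 in turn, against 46.4, 50.3 and 54.2% of all genes. Between H1703 and HCC827, H1703 and H441, and HCC827 and H441 it was 7, 5 and 5, against 50.7, 52.1 and 44.7%. The counts of 5 lay near those shares, and the counts of 7 not far above them. ELOVL6 was higher in H460 than in H1703 by 2.60 and higher in HCC827 than in H441 by 2.17 on the log2 scale, while H460 and HCC827 did not pass against each other (-0.18 ± 0.12, adjusted p = 0.24). ELOVL5 was highest in H1703, by 0.47 to 1.09 over the other lines, and ACSL3 was highest in H460, by 0.45 to 1.11. ACACA was highest in HCC827, with differences of -0.86 for H460, -0.52 for H1703 and, taken as HCC827 minus H441, 0.62. ELOVL1 was lowest in H1703, with differences of -0.49 from HCC827 and -0.68 from H441 and, taken as H460 minus H1703, 0.31. SCD passed in 2 of the 6 pairs only, being higher in H460 and H1703 than in HCC827.

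Other genes of fatty acid synthesis went both ways. Of 24 tested, 6 fell and 3 rose in H460, 5 and 4 in H1703, 4 and 1 in HCC827, and 0 and 1 in H441, with medians of -0.03, 0.01, -0.15 and -0.04. Of all genes tested, 12.6% fell and 14.1% rose in H460, 17.6 and 17.9% in H1703, 5.5 and 4.42% in HCC827, and 1.86 and 2.77% in H441. The rises in every line, and the falls in H1703 and H441, lay near those shares. With 1 library left out, 3 to 6 fell in H460 (3 without either vehicle library or combination replicate 1 of that line) and 2 to 5 in HCC827 (2 without either of its combination libraries). The dehydratase HACD2, which serves the elongation cycle, fell in 3 lines (-0.81, -0.65 and -0.47, each ± 0.10, in H460, H1703 and HCC827). Its HCC827 call was lost with neither trend nor robust (adjusted p = 0.0542). The elongase ELOVL7 rose in H460 (1.24 ± 0.17) and H1703 (1.19 ± 0.17). In H460 the rise rested on few reads, 4.89 and 5.51 normalised reads in vehicle against 16.3 and 14.8 with the combination. It did not pass there in the count model voom (adjusted p = 0.0987) or with only the H460 libraries (adjusted p = 0.0586). The second stearoyl-CoA desaturase gene, SCD5, went from 244 and 293 normalised reads to 47.9 and 53.6 in H1703 (-2.34 ± 0.61, adjusted p = 0.0051), alongside SCD, and was near 0 in HCC827 and H441. HACD1 fell by 1.15 ± 0.22 in H1703. In HCC827 it was at -0.73 ± 0.22 (adjusted p = 0.039), a call lost in the fit of the HCC827 libraries alone (adjusted p = 0.204) and without 5 single libraries, up to 0.392 without HCC827 vehicle replicate 1.

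The sterol synthesis and uptake genes, which share SREBP control with fatty acid synthesis, fell for the most part in 3 lines. Of 22 tested, 18 fell and 1 rose in H460, 14 fell in H1703 and 18 in HCC827, with medians of -1.17, -0.83 and -0.82, against 12.6, 17.6 and 5.5% of all genes called lower. In H441 1 fell and the median was -0.04. ACAT2 changed by -2.12, -1.93 and -1.18 (each ± 0.16) in H460, H1703 and HCC827, and the isomerase IDI1 by -1.89, -1.03 and -1.76 (each ± 0.16). The fall in H441 was lost without H441 vehicle replicate 2. The gene that rose in H460 was TM7SF2 (0.80 ± 0.22, adjusted p = 0.0086), which is named after its values were seen. This call was lost with quantile normalisation, with voom, with only the H460 libraries and without H460 vehicle replicate 2.

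Among 20 regulators, 5 fell and 4 rose in H460, 6 and 8 in H1703, 4 and 4 in HCC827, and 2 and 2 in H441. The shares over all genes, lower and higher, were 12.6 and 14.1%, 17.6 and 17.9%, 5.5 and 4.42%, and 1.86 and 2.77%. With 1 library left out, rises ranged from 5 to 9 in H1703 and from 1 to 4 in HCC827. SREBF1, which encodes SREBP-1, had 1538 and 1573 normalised reads in H460 vehicle and 507 and 556 with the combination, a change of -1.55 ± 0.10. It also fell in HCC827 (-0.77 ± 0.10) and H441 (-0.78 ± 0.10). In the fit of the H441 libraries alone it did not pass (adjusted p = 0.116). In H1703 it had 1241 and 999.8 against 899.5 and 872, a change of -0.33 ± 0.10 (adjusted p = 0.015) that did not pass without H1703 vehicle replicate 1 (adjusted p = 0.296) or combination replicate 2 (adjusted p = 0.0819). After quantile normalisation the SREBF1 change in H1703 was -0.15 and did not pass (adjusted p = 0.316). SREBF2 fell in H460, H1703 and HCC827 (-0.87, -0.52 and -0.43, each ± 0.10) and did not pass in H441 (0.08, adjusted p = 0.77). Its HCC827 call was lost with neither trend nor robust (adjusted p = 0.0772) and without HCC827 vehicle replicate 2 (adjusted p = 0.0566). INSIG1, which retains the SREBP complex in the endoplasmic reticulum and is itself an SREBP target, fell in H460, H1703 and HCC827 (-3.04, -0.94 and -2.69, each ± 0.21), and its value of -0.45 in H441 did not pass (adjusted p = 0.30). The pseudokinase gene TRIB3 rose in H460, H1703 and HCC827 (1.72, 1.95 and 2.21, each ± 0.16). In H441 it was at 0.64 ± 0.16 (adjusted p = 0.021), a call lost without any 1 of the 4 H441 libraries (up to 0.157), with neither trend nor robust (0.13), with voom (0.094) and with only that line's libraries (0.115). The nuclear receptor gene PPARG rose in H460 and H1703 (1.85 and 1.76, each ± 0.17). MLXIPL, which encodes the carbohydrate-responsive factor ChREBP, had at most 54.5 normalised reads in any library. In H1703 it had 12.7 and 7.71 in vehicle and 54.5 and 42.6 with the combination (2.02 ± 0.56, adjusted p = 0.0077), a call lost without H1703 combination replicate 1 (0.0694) or vehicle replicate 2 (0.0785). The sterol-sensing receptor gene NR1H3 changed by -0.30, 0.55, -0.28 and -0.17 (each ± 0.21) in H460, H1703, HCC827 and H441, and its H1703 value (adjusted p = 0.044) did not pass after median centring.

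A further list held 17 genes of glycerolipid, phospholipid and sterol ester synthesis, most of them acyltransferases. Of these, 5 fell and 2 rose in H460, 7 and 3 in H1703, 2 and 1 in HCC827, and 1 and 3 in H441. Over all genes 12.6 and 14.1%, 17.6 and 17.9%, 5.5 and 4.42%, and 1.86 and 2.77% were called lower and higher. The rises in H460, H1703 and HCC827 lay near those shares. With 1 library left out, 0 to 3 rose in H441, and in H460 0 to 2 rose and 3 to 6 fell (3 without H460 vehicle replicate 1). No gene of the list rose in H460 after median centring or quantile normalisation, with no filter or with neither trend nor robust. LPCAT1, which remodels phosphatidylcholine, fell in all 4 lines (-0.72, -1.40, -1.39 and -1.33, each ± 0.11). In the fit of the H441 libraries alone its H441 change did not pass (adjusted p = 0.0809). SOAT1, a cholesterol acyltransferase, fell in H460 (-1.16 ± 0.09) and H1703 (-1.05 ± 0.09) and was at 0.15 and 0.23 in the other lines. LPIN1 fell in H460 (-1.29 ± 0.11) and HCC827 (-0.80 ± 0.11) and rose in H1703 (0.56 ± 0.11). Of 20 fatty acid oxidation genes, 2 fell and 3 rose in H460, 6 and 0 in H1703, 3 and 0 in HCC827, and 1 and 2 in H441, and both H460 counts lay near the shares over all genes. After median centring 17 of them were called lower in H1703, and with 1 library left out 0 to 3 were called lower in HCC827. HADH fell in H460 and H1703 (-0.90 and -0.67, each ± 0.12), while ACADVL rose in H460 and H441 (0.63 and 0.59, each ± 0.08). In the fit of the H441 libraries alone the ACADVL rise did not pass (adjusted p = 0.0909).

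**Figure D4:**
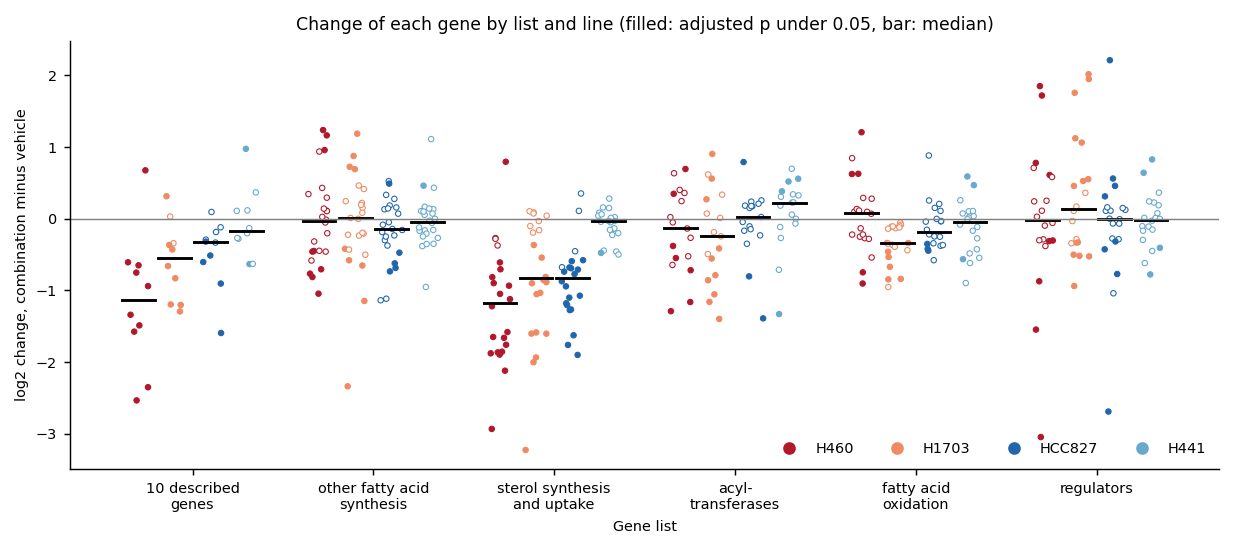
Log2 change of each tested gene (points, filled at an adjusted p of at most 0.05) by gene list (horizontal axis) and line (colours), with a bar at the median. The bars of the 10 genes described and of the sterol list lie below 0 in H460, H1703 and HCC827, at -1.14, -0.54 and -0.33 and at -1.17, -0.83 and -0.82, while those of the other lists lie closer to 0.

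The RNAs most like the members over the 16 libraries are given as a description, since the libraries share lines, treatments and depth. With the mean standardised level of the 10 genes, THOC3, PARP2, DDX39A, CKAP2L and SNRPA had Pearson r values of 0.945, 0.939, 0.935, 0.935 and 0.929. This search left out the 10 genes and all genes of the lists described above, so closer genes among those would not appear. The search for single members left out no list. For single members the nearest genes were WDR5 for ACLY (0.967), DLST for ELOVL6 (0.966), AKT2 for ACACA (0.959), CEP350 for ACSL3 (0.952) and HACD3, a dehydratase of the elongation cycle, for FADS2 (0.951). Among the members themselves, the highest r was 0.87, between FADS1 and FADS2, then 0.78 between FASN and SCD and 0.74 between ACLY and FASN. ELOVL6 and SCD had an r of 0.04.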

How the data were processed

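RNA of 16 libraries was made with a stranded total RNA kit, per the labels' protocols. Reads were processed with Trimmomatic, STAR (hg38, GRCh38) and featureCounts, per the submitters' processing notes, with no versions given. The annotation release and the strand setting are not given in the sources used here, and the single agents were not analysed here. The deposited table gives 28951 genes as log2 values that the authors obtained by variance stabilisation of counts, and its lowest value, 0.4805, stands for a count of 0. Inverting it returned whole reads (tolerance 0.02) for 100% of values. Normalised reads are these reads divided by the library's size factor.

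GENCODE 29 named 28846 of the gene IDs. Genes were tested if their mean lay at least 1 above the lowest value (23968 kept, 4983 removed), in 1 limma 3.58.1 fit (R 4.3.3, trend and robust) of the 8 group means with 8 residual degrees of freedom. A log2 change on this scale understates the change of genes with few reads. The adjusted p is by Benjamini and Hochberg over all genes tested, with a threshold of 0.05. The pipeline was tested on simulated data. Alternatives were median centring, quantile normalisation, no filter or a stricter one (mean at least 4 above the lowest value), neither trend nor robust, a replicate block, only 1 line's libraries, voom on recovered reads, and each library left out. Tables used Python 3.11.15 with numpy 2.4.6 and pandas 2.3.3, and figures matplotlib 3.10.9.

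The members and gene lists were chosen with earlier results of these data known. From each list up to 4 genes were eligible to be named, out of those called in at least 1 line. They had the largest absolute value of the mean change over the lines. SREBF1, SREBF2, INSIG1, MLXIPL and NR1H3 were eligible too. In the list of other fatty acid synthesis genes, OLAH, FADS6, ELOVL3 and ACSL6 were not tested. Some genes of the sterol list are not reported here by name. Promoter windows are RefSeq's (GRCh38.p14).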

Additional observations from a re-analysis of the deposited data

Results flagged for a closer look

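Tests of the difference between responses picked out 18 values among the 10 genes, all on the log2 scale and all from the limma fit. Between the responsive and the non-responsive lines, the changes differed by -0.78 for ACLY, -0.6 for ACACA, -0.7 for FASN, -0.67 for SCD, -0.65 for FADS1, -1.46 for FADS2, 0.39 for ELOVL1, -0.49 for ELOVL5 and -1.26 for ELOVL6. Between H460 and H1703 they differed by 0.64 for ACLY, -1.15 for SCD, -1.61 for FADS1, -2.19 for FADS2, -0.32 for ELOVL5 and -0.83 for ELOVL6. Between HCC827 and H441 they differed by -0.44 for ELOVL5, -1.58 for ELOVL6 and -0.64 for ACSL3. ELOVL5 and ELOVL6 differed in all 3 comparisons, although the ELOVL5 differences within each class were lost in most fits that left out 1 library.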

How the results depend on the processing

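Of 670 values of single genes under an alternative, 607 kept their direction and their side of the threshold, 32 lost the call, 19 gained it and 12 changed sign, none of these called. Several alternatives leave the log2 change as it is, so that only the call could differ. These were no filter, the stricter filter, neither trend nor robust, the replicate block and only 1 line's libraries. The fits without 1 library entered only at their lowest and highest adjusted p. At the lowest, where a call can hardly be lost, 64 stayed the same and 6 gained a call. Median centring gave -0.02 for ACLY, -0.03 for FADS1 (both HCC827 minus H441), -0.21 for FADS1 in H1703 and -0.11 for ACSL3 between the classes. For HCC827 minus H441, quantile normalisation and voom gave 0.08 and 0.16 for ACACA and 0.02 and 0.16 for ELOVL1. Leaving out 1 library gave, at the lowest and the highest adjusted p, -0.06 and 0.01 for ACACA and 0.09 and -0.00045 for FADS1 (HCC827 minus H441), -0.33 and 0.04 for FASN (H460 minus H1703), and 0.07 and -0.0026 for FADS1 in H1703. The cause was not tested.

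The count of called genes in HCC827, 5, was 3 with neither trend nor robust, as it was over the non-responsive lines (5 as reported). In H441 the count of 2 became 4 with quantile normalisation, 5 with voom and 0 with only that line's libraries, where fewer samples enter. For HCC827 minus H441 the count of 3 became 1 with neither trend nor robust. Without 1 library the counts were 10 to 10 in H460, 7 to 8 in H1703, 3 to 6 in HCC827 (3 without HCC827 combination replicate 2), 2 to 4 in H441 (4 without H460 combination replicate 1 or 2), 7 to 9 between the classes, 4 to 7 for H460 minus H1703 and 1 to 4 for HCC827 minus H441. A group left with 1 library is assumed to vary like the others.

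Whether same-numbered replicates of vehicle and combination were handled together is not stated. The correlation of their deviations was 0.18 in H460 and 0.042 to 0.078 in the other lines, which cannot settle it. With a replicate block all 10 genes were again called in H460, ELOVL1 lost its call in H1703 (adjusted p = 0.0552), and ACACA in HCC827 (adjusted p = 0.0326), SCD in H441 (adjusted p = 0.0175) and SCD for HCC827 minus H441 (adjusted p = 0.0185) gained one. Depth limits mainly FADS2 outside H460, ELOVL6 in H1703 and H441, ELOVL1 in all lines, ELOVL7 in H460, and SCD5, which had few reads.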
